A study of Mus musculus with 18 samples.

Results

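Gene expression in common lymphoid progenitors (CLPs) from Trim33-/- mice was compared with that in CLPs from wild type mice, across every gene of the deposited table. The comparison used the libraries labelled as CLPs, 6 of the 18 libraries of the series, with 3 from wild type (WT) and 3 from Trim33-/- (KO) mice. The table listed 18378 genes, of which 12339 averaged 0.5 FPKM or more across the 6 libraries and were tested. FPKM is the number of fragments per kilobase of transcript, scaled by the library's total of mapped fragments. All mice were C57BL/6, 6 to 8 weeks old, and carried Trim33 fl/fl alleles, in which loxP sites flank exons 2 to 4 of Trim33. KO mice also carried Cre-ERT2, a Cre recombinase driven from the ubiquitous Rosa26 locus and active only with tamoxifen, so the deletion was not restricted to CLPs or to one lineage. For the deletion the methods give tamoxifen daily at 2 mg for 5 days and analysis another 7 days later, and both genotypes are described as tamoxifen-treated for these libraries. Since WT mice lacked the Cre transgene, the presence of Cre and the loss of Trim33 cannot be told apart in this comparison. CLPs were sorted from bone marrow as Lin- CD11c- Sca-1+ CD117+ CD127+ FLT3+ cells, and poly-A RNA was sequenced as single-end reads of 50 bases. The 3 libraries of a genotype are described as biological repeats, and whether a library pooled several mice is not given in the sources used here. The question was how the loss of Trim33 alters the transcriptome of a progenitor from which dendritic cells (DCs) can arise.

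CLPs carry the receptors for interleukin 7 (CD127, encoded by Il7r) and for FLT3 ligand. They give rise to B cells, and also to T cells, NK cells, innate lymphoid cells and a share of plasmacytoid DCs (pDCs). The pDC is the cell known for secreting type I interferon when its endosomal Toll-like receptors meet nucleic acid. Its differentiation depends on the transcription factor TCF4. RUNX2 is needed for its exit from bone marrow, SPIB is also associated with it, and its need for IRF8 is debated. TRIM33 is a nuclear protein of the TIF1 family with a RING domain and a PHD finger and bromodomain that read modified histone H3, and it is known as a partner and regulator of SMAD proteins in TGF-beta signalling.

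The estimated depth was 19.3 to 20.4 M mapped reads a library, and the FPKM of a library summed to between 448367 and 508976. Pearson correlations of log2(FPKM + 1) were 0.976 to 0.990 between WT libraries, 0.984 to 0.989 between KO libraries and 0.952 to 0.966 across genotypes. The first principal component held 57.5% of the variance and separated the genotypes, while the second, with 21.4%, set WT library 1, and to a lesser extent KO library 1, apart from the others. Trim33 itself was 12.4, 7.01 and 8.86 FPKM in the WT libraries and 7.52, 5.6 and 7.66 FPKM in the KO libraries, so the groups overlapped (log2 fold change -0.37, SE 0.20, limma adjusted p 0.25). The gene-level value includes reads from the exons outside the deleted part and therefore checks the labels only weakly.

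The promoters of 5 genes that the results below turn on are printed here as the 250 bases before the transcription start in RefSeq (build GRCm38.p6, the same assembly as the mm10 of the alignments), so that the sequences can be read beside the values. Spib and Irf8 encode the transcription factors with the largest falls on the log2 scale and in FPKM, Siglech is the classical pDC surface marker, and Ly6c2 and Cxcr3 are genes lower in KO whose window holds a site of the kind bound by PU.1 and SPIB. Capitals mark matches on either strand to GAGGAAGT (ACTTCCTC on the other strand), a site of PU.1 and SPIB, or to CAGGTG or its reverse complement, a site of E proteins such as TCF4. The composite of an ETS core, GGAA, with an IRF core lying 2 bases after it, and a pair of IRF cores with the same spacing, the IRF core being read as GAAA, were also searched on both strands and were not found in these windows.
Spib, chr7:44532072-44532321, minus strand: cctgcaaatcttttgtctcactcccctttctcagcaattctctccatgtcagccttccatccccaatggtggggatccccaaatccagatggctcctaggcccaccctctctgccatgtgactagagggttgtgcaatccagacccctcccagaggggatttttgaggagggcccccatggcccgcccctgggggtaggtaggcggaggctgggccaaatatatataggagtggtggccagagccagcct
Irf8, chr8:120736108-120736357, plus strand: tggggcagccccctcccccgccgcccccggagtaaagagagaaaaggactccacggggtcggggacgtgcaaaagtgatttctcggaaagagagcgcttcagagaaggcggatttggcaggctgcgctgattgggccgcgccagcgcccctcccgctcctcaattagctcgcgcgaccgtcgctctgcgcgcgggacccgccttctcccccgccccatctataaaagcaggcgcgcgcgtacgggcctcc
Siglech, chr7:55767934-55768183, plus strand: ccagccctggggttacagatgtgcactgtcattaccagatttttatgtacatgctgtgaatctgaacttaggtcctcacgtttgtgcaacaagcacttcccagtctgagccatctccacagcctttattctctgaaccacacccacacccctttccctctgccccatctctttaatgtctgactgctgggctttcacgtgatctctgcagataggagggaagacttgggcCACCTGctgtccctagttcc
Ly6c2, chr15:75111972-75112221, minus strand: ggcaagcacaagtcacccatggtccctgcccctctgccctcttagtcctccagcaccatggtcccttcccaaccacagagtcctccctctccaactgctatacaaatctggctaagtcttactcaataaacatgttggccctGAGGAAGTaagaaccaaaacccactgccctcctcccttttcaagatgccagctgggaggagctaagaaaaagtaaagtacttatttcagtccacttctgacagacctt
Cxcr3, chrX:101734148-101734397, minus strand: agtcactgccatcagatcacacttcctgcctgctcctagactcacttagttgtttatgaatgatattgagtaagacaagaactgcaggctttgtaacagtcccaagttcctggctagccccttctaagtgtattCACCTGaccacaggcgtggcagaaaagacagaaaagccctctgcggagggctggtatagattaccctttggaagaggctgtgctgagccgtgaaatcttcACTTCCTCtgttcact
The bases that directly follow the Ly6c2 start in RefSeq were not found in its transcript, so the place of that start is uncertain. The Siglech window holds 1 E protein site, the Ly6c2 window 1 PU.1 and SPIB site, and the Cxcr3 window 1 of each. Cd7, Ctsh and Lpl have no entry among the promoter windows.

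In all, 351 genes were lower and 83 higher in KO CLPs by limma, with an adjusted p no higher than 0.05 and a log2 fold change of 1 or more in size, and only such genes are called lower or higher, or said to have fallen or risen, from here on. The lower genes were 2.84% of all genes tested and the higher genes 0.673%, so that 80.9% of the called genes lay on the lower side (62.3% with no minimum fold). Fold changes are KO less WT on log2(FPKM + 1), a scale that shrinks the changes of weakly expressed genes, and the median over all genes tested was 0.01. The called lower genes took 3.19 to 3.72% of a WT library's summed FPKM and 0.913 to 0.937% of a KO library's. The called higher genes took 0.144 to 0.148% in WT and 0.380 to 0.421% in KO. A log2 fold change of at least 3 was seen for 28 of the lower genes and 2 of the higher genes. For 431 of the 434 called genes all values of one genotype lay beyond all values of the other, the exceptions being Gem, Mir1981 and BC100530. Among all genes tested, all KO libraries lay below all WT libraries for 18.6% and above them for 15.3%. In these bulk samples, fewer cells of a type and less RNA per cell cannot be told apart.

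**Figure D1:**
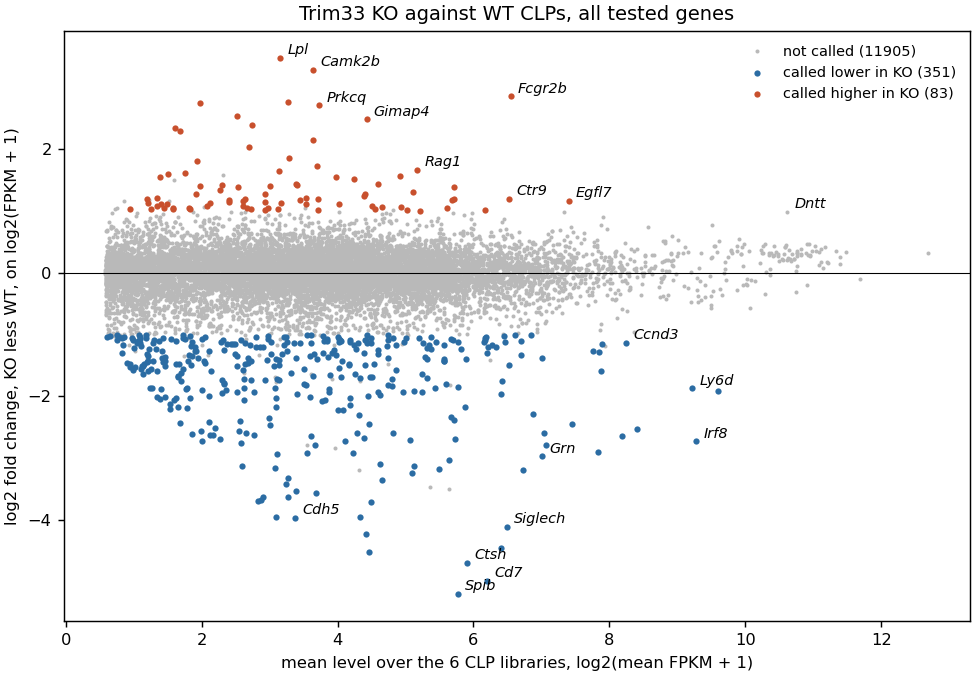
Each point is 1 of the 12339 genes tested, with its mean level over the 6 CLP libraries as log2(mean FPKM + 1) on the x axis and its log2 fold change, KO less WT on log2(FPKM + 1), on the y axis. The 351 genes called lower (blue) reach -5.20 at Spib and extend to abundant genes such as Irf8, while the 83 called higher (orange) reach 3.48 at Lpl.

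The genes that encode the surface proteins of the sort were present in both genotypes, as the gate requires. Il7r was 63.03, 32.6 and 33.9 FPKM in the WT libraries and 37.6, 38.8 and 43.05 FPKM in the KO libraries, so that WT library 1 was above all others and the 2 other WT libraries below all KO libraries. The log2 fold change of Il7r was -0.05, and 0.25 without WT library 1. Flt3 was 309.9, 295 and 270.0 FPKM in WT against 306, 327 and 329.5 FPKM in KO, with overlapping groups (log2 fold change 0.14). Kit, the CD117 receptor, was 13.8, 13.3 and 11.5 FPKM in WT against 18.6, 18.9 and 22.4 FPKM in KO, so that every KO library was above every WT library at a change short of the fold required (log2 fold change 0.6, SE 0.12, limma adjusted p 0.012). The 6 tested genes for proteins that such a gate excludes fell in part. Itgax, which encodes CD11c, was 61.02, 69.7 and 54.8 FPKM in WT against 5.36, 5.92 and 7.47 FPKM in KO (log2 fold change -3.12, SE 0.14, limma adjusted p 5.1e-06). Cd8a was 2.06, 1.93 and 1.95 FPKM in WT against 0.44, 0.35 and 0.17 FPKM in KO (log2 fold change -1.18, SE 0.13, limma adjusted p 6.0e-04). The other tested genes of this kind were not called.

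The lymphoid programme of these progenitors did not move in one direction. Rag1, which encodes a subunit of the recombinase that cuts antigen receptor genes, was 16.98, 15.2 and 16.2 FPKM in the WT libraries and 48.4, 54.4 and 58.8 FPKM in the KO libraries (log2 fold change 1.67, SE 0.11, limma adjusted p 2.5e-05), a 3.33-fold difference in mean FPKM. Lax1, an adaptor of lymphocyte receptor signalling, was 31.2, 29.4 and 30.2 FPKM in the WT libraries and 63.9, 66.8 and 81.3 FPKM in the KO libraries (log2 fold change 1.19, SE 0.11, limma adjusted p 2.5e-04). Both genes rose without overlap between genotypes. Dntt, the terminal transferase of immature lymphocytes and among the most abundant genes in these cells, was 989, 1012 and 1135 FPKM in WT against 1891, 2277 and 2089.9 FPKM in KO (log2 fold change 0.99, limma adjusted p 0.0018), just short of the fold required for a call. Rag2 was 4.81, 5.42 and 5.48 FPKM in WT against 6.5, 13.7 and 10.8 FPKM in KO (log2 fold change 0.81, limma adjusted p 0.047). In contrast Ly6d, the surface antigen that marks the B cell-biased part of the CLP compartment, was 725, 913 and 1168 FPKM in the WT libraries and 247, 260.2 and 246 FPKM in the KO libraries and fell (log2 fold change -1.87, SE 0.17, limma adjusted p 2.0e-04). Genes that open the lymphoid programme showed no such separation. Sox4 was 95.3, 87.6 and 95.97 FPKM in WT against 91.2, 90.9 and 94.02 FPKM in KO. Notch1 was 109, 74.8 and 70.0 FPKM in WT against 112, 75.4 and 91.7 FPKM in KO. Satb1, a chromatin organiser of lymphoid progenitors, was 63.1, 38.04 and 36.4 FPKM in WT against 71.6, 57.5 and 65.2 FPKM in KO, and the groups overlapped in all 3 genes.

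**Figure D2:**
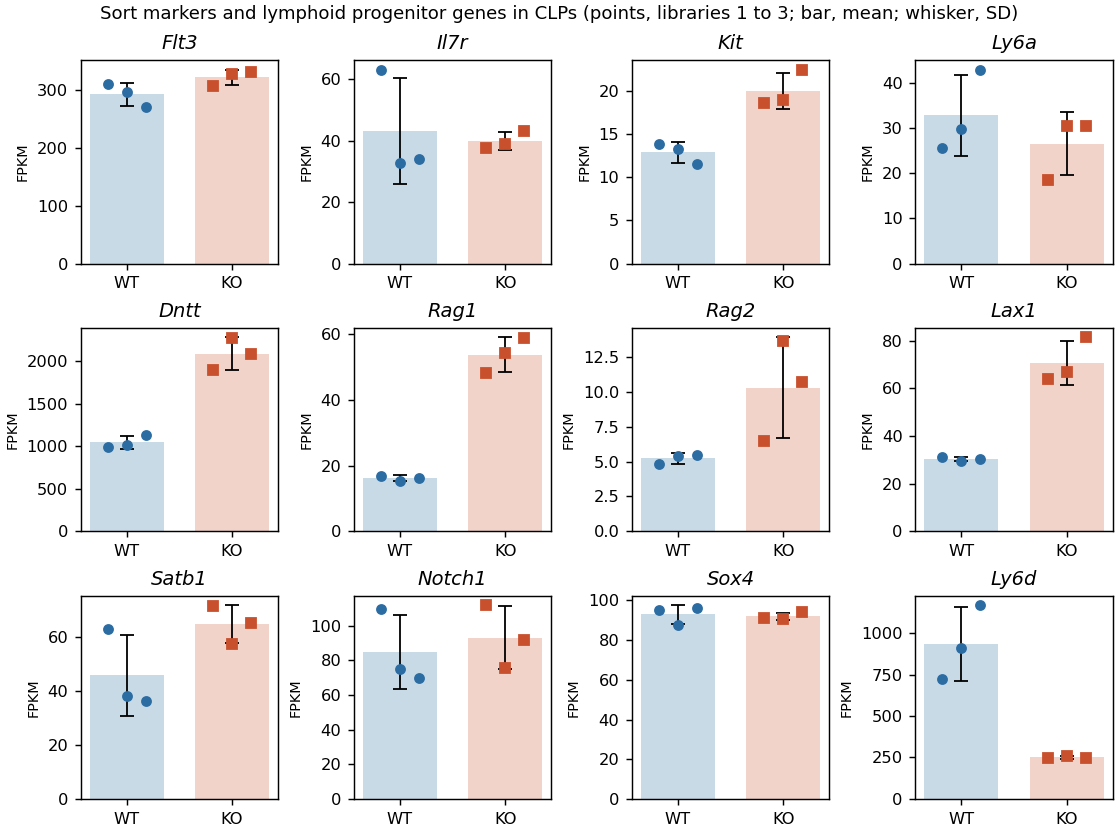
FPKM of 12 sort markers and lymphoid progenitor genes in each CLP library, with WT libraries as circles and KO libraries as squares in the order 1 to 3, bars for the mean and whiskers for the SD (n = 3). Dntt, Rag1, Rag2, Lax1 and Kit were higher in every KO library than in any WT library and Ly6d was lower, while Flt3, Il7r, Ly6a, Satb1, Notch1 and Sox4 overlapped.

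Genes of the early B lymphoid programme gave few calls, with 1 lower (Ly6d) and 1 higher (Rag1) among 26 tested members, both described above. That is 3.85% in each direction, resting on 1 gene each way. Of all genes tested, 2.84% were lower and 0.673% higher. Ebf1, the factor that commits cells to the B lineage, was 12.1, 13.5 and 16.7 FPKM in WT against 17.7, 22.5 and 26.8 FPKM in KO (log2 fold change 0.62, limma adjusted p 0.044). Vpreb1, a surrogate light chain gene, was 58.4, 142 and 218 FPKM in WT against 52.3, 139 and 126 FPKM in KO. Igll1, its partner, was 57.1, 126 and 199 FPKM in WT against 36.1, 119 and 116 FPKM in KO. In both genes library 1 was the lowest of each genotype and the groups overlapped. Among 21 genes of T and innate lymphoid priming, Cd7, Thy1 and Ccr9 fell and Nkg7, a cytotoxic granule gene, rose. Among 25 stem and multipotent progenitor genes, Mycl fell and Angpt1, a ligand of the TIE2 receptor, rose from 6.46, 5.18 and 5.28 to 12.5, 16.5 and 13.3 FPKM (log2 fold change 1.18, SE 0.14, limma adjusted p 8.9e-04). The median log2 fold change over all 25 was 0.37. At any fold, 8 members of that list had an adjusted p no higher than 0.05 on the higher side against 5.41% of all genes tested. They included Cd34, at 156, 151 and 135 FPKM in WT against 219.7, 228 and 212 FPKM in KO (log2 fold change 0.58, limma adjusted p 0.0061), and Erg, at 30.6, 27.96 and 31.1 FPKM in WT against 49.6, 51.5 and 53.8 FPKM in KO (log2 fold change 0.77, limma adjusted p 0.0010).

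Most of the listed genes of the pDC programme fell. Of 34 such genes, 27 were lower and 0 higher, against 2.84% of all genes tested on the lower side, and their median log2 fold change was -2.01. Together the listed genes summed to 4765 to 5237 FPKM in the WT libraries and 1968 to 2194 FPKM in the KO libraries. Counts for this and the other lists are over tested members, the rest being below the 0.5 FPKM filter. They are to be read beside the 2.84% lower and 0.673% higher among all genes tested. The list was assembled with earlier results of these data known, so its count describes these genes and is not independent evidence. Among the members that were not called, Plac8 was 1262, 1250.3 and 1276 FPKM in WT against 1172, 1419 and 1235 FPKM in KO. Tlr7, the endosomal receptor for single-stranded RNA, was 13.6, 7.74 and 9.19 FPKM in WT against 8.69, 9.74 and 10.6 FPKM in KO, and both genes overlapped between genotypes. Klk1, a kallikrein, was listed at 0 in every KO library and was 4.67, 4.63 and 3.97 FPKM in WT. Klra17, a lectin-like receptor, was likewise listed at 0 in KO and was 3.62, 2.87 and 2.7 FPKM in WT.

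Transcription factors were among them. Spib, an ETS factor of pDCs and B cells, was 120.0, 99.02 and 95.8 FPKM in the WT libraries and 1.51, 2.17 and 1.97 FPKM in the KO libraries, the largest fall of any gene on this scale (log2 fold change -5.2, SE 0.13, limma adjusted p 5.4e-07). Irf8 encodes a factor essential for type 1 conventional DCs. It was 1097, 1132 and 992 FPKM in the WT libraries and 189.5, 151 and 147 FPKM in the KO libraries and remained abundant in KO (log2 fold change -2.72, SE 0.13, limma adjusted p 6.3e-06). Neither gene's values came near to overlapping. Runx2 was 185, 101 and 109 FPKM in WT against 43.7, 29.7 and 39.3 FPKM in KO (log2 fold change -1.74, limma adjusted p 0.0018). The E protein gene Tcf4 was 74.6, 46.1 and 45.95 FPKM in WT against 25.1, 23.4 and 29.1 FPKM in KO (log2 fold change -1.04, limma adjusted p 0.0081), and it dropped below the fold required without WT library 1, without KO library 2 or after quantile normalization. Mycl, the MYC family member expressed by DCs, was 33.6, 32.3 and 30.2 FPKM in WT against 3.1, 3.35 and 3.61 FPKM in KO (log2 fold change -2.92, SE 0.11, limma adjusted p 1.9e-06). Among 8 interferon regulatory factors Irf8, Irf7 and Irf5 fell, a call that Irf5 lost without KO library 1. Irf4 was 8.51, 7.12 and 12.7 FPKM in WT against 8.26, 7.02 and 14.3 FPKM in KO. Irf1 was 81.6, 120.2 and 119 FPKM in WT against 78.4, 103 and 106 FPKM in KO, and neither factor separated the genotypes. Among 22 ETS, C/EBP and Runx factors only Spib and Runx2 fell, although Cebpa, a factor of myeloid progenitors, was also 22.3, 34.3 and 26.4 FPKM in WT against 14.03, 15.2 and 12.7 FPKM in KO (log2 fold change -0.92, limma adjusted p 0.0060). Spi1, which encodes PU.1, was 69.5, 76.2 and 60.1 FPKM in WT against 68.5, 60.97 and 60.9 FPKM in KO, with overlapping groups. With the replicate number as a block, a fit that called 3.11% of all genes lower, 3 members of this list were lower.

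Several pDC surface molecules fell to a small part of their WT level. Cd7, an immunoglobulin superfamily receptor of lymphoid progenitors and pDCs, was 115, 171 and 138 FPKM in the WT libraries and 2.65, 3.31 and 4.54 FPKM in the KO libraries (log2 fold change -4.98, SE 0.19, limma adjusted p 2.0e-06). Siglech, the sialic acid binding lectin by which mouse pDCs are recognised, was 216, 145 and 146 FPKM in the WT libraries and 9.11, 7.67 and 9.24 FPKM in the KO libraries (log2 fold change -4.11, SE 0.16, limma adjusted p 2.7e-06). Cd300c, an activating receptor of myeloid cells and pDCs, was 37.9, 44.7 and 41.6 FPKM in the WT libraries and 0.87, 0.78 and 0.88 FPKM in the KO libraries (log2 fold change -4.52, SE 0.11, limma adjusted p 5.4e-07). In these 3 genes the KO libraries lay close together and far below all WT libraries. Bst2, the tetherin that is also known as the pDC antigen PDCA-1, was 479.7, 529 and 495 FPKM in WT against 76.6, 89.3 and 73.9 FPKM in KO (log2 fold change -2.64, SE 0.11, limma adjusted p 3.1e-06). Ly6c2 was 137, 172 and 174 FPKM in WT against 3.37, 7.23 and 10.2 FPKM in KO (log2 fold change -4.45, SE 0.30, limma adjusted p 3.5e-05), and its neighbour Ly6c1, of near-identical coding sequence, was 5.79, 6.65 and 5.15 FPKM in WT against 0.39, 1.25 and 0.61 FPKM in KO. The counting may have split reads between these 2 Ly6 genes. Smaller falls were seen in Cd4, Lair1, Cd209a, Lifr and the gut-homing receptor gene Ccr9.

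**Figure D3:**
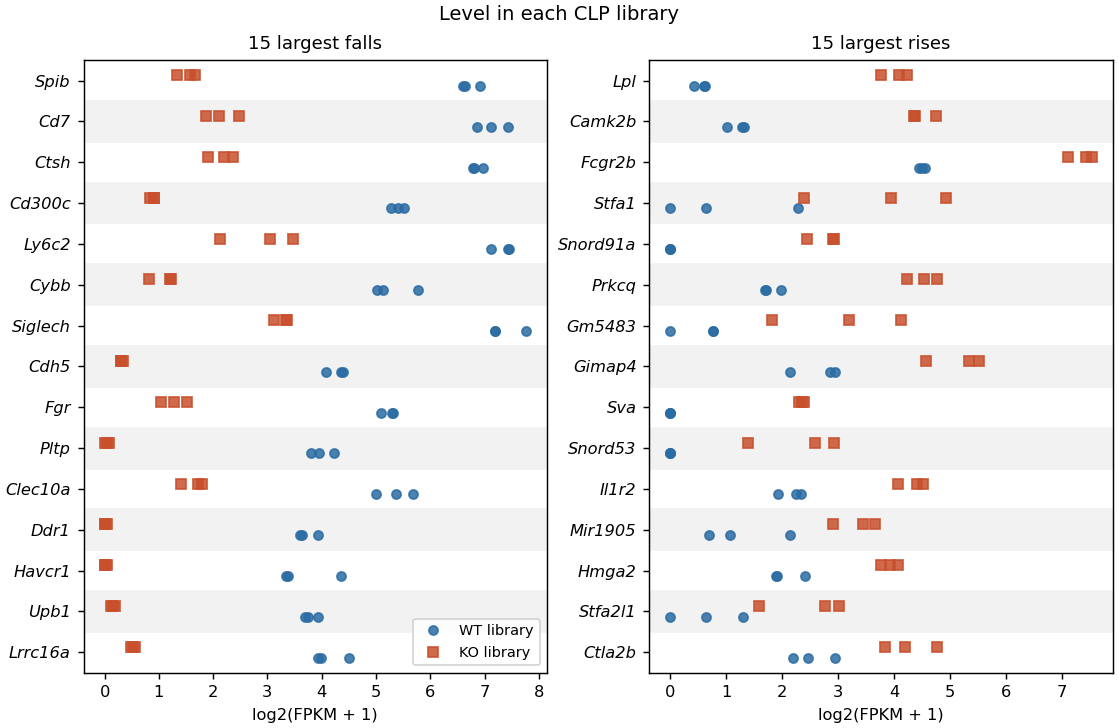
Level in each CLP library, as log2(FPKM + 1), for the 15 called genes with the largest fall (left) and the 15 with the largest rise (right) whose values do not overlap, with WT libraries as circles and KO libraries as squares. Among the falls the WT and KO points are separated by several log2 units, whereas among the rises the genotypes come closest for the stefin gene Stfa1.

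The machinery by which pDCs sense nucleic acid was lower in part. Among 22 Toll-like receptors and their partners, 5 fell and none rose, against 2.84% of all genes tested on the lower side. Tlr9, the receptor for unmethylated CpG DNA, was 11.5, 9.21 and 8.8 FPKM in the WT libraries and 0.81, 0.53 and 1.07 FPKM in the KO libraries (log2 fold change -2.59, SE 0.16, limma adjusted p 2.1e-05). Tlr12, a receptor for protozoan profilin, was 8.7, 8.49 and 7.23 FPKM in WT against 1.45, 1.26 and 1.47 FPKM in KO (log2 fold change -1.93, SE 0.12, limma adjusted p 2.5e-05). Unc93b1, the chaperone that carries the endosomal receptors to their compartment, was 301, 377 and 305 FPKM in WT against 129, 159 and 152 FPKM in KO (log2 fold change -1.15, SE 0.13, limma adjusted p 7.4e-04). Slc15a3, a lysosomal peptide transporter, and Ly86, the partner of the receptor RP105, fell as well, with log2 fold changes of -1.74 (limma adjusted p 3.3e-05) and -1.24 (limma adjusted p 2.6e-04). Myd88, the adaptor shared by most of these receptors, was 23.9, 28.4 and 24.4 FPKM in WT against 18.8, 20.1 and 18.8 FPKM in KO (log2 fold change -0.39, limma adjusted p 0.042), short of the fold required.

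Lysosomal proteases stood out among the abundant genes. Ctsh, which encodes cathepsin H, was 109, 125 and 110.4 FPKM in the WT libraries and 2.76, 4.15 and 3.58 FPKM in the KO libraries (log2 fold change -4.7, SE 0.13, limma adjusted p 8.3e-07). Ctsb, which encodes cathepsin B, was 220.1, 232 and 221 FPKM in the WT libraries and 36.8, 37.05 and 35.3 FPKM in the KO libraries (log2 fold change -2.59, SE 0.09, limma adjusted p 1.6e-06), with KO values within a narrow range. Of 17 cathepsins and cystatins, 5 fell, against 2.84% of all genes tested. The 5 were Ctsh, Ctsb, Ctsl, Ctsz and Ctss (the last lost without KO library 1). Ctsd was 132, 159 and 143 FPKM in WT against 119.5, 133 and 113 FPKM in KO with overlapping groups. Psap, the precursor of the saposins that activate sphingolipid hydrolases, was 1264, 1321 and 1098 FPKM in the WT libraries and 345, 313 and 315 FPKM in the KO libraries, the largest difference in mean FPKM after Irf8 among the lower genes (log2 fold change -1.91, SE 0.12, limma adjusted p 2.3e-05). Grn, the progranulin precursor that binds to prosaposin, was 249, 234 and 198 FPKM in WT against 30.3, 26.9 and 26.7 FPKM in KO (log2 fold change -2.97, SE 0.11, limma adjusted p 2.2e-06). Pld4, an exonuclease of the lysosome, was 196, 201 and 169.7 FPKM in WT against 14.2, 21.7 and 25.04 FPKM in KO (log2 fold change -3.19, SE 0.19, limma adjusted p 1.8e-05). Tfeb, a transcription factor of lysosomal genes, was 22.1, 22.8 and 19.9 FPKM in WT against 10.2, 10.1 and 8.26 FPKM in KO (log2 fold change -1.11, SE 0.12, limma adjusted p 5.3e-04). In the wider list of 51 lysosomal genes only Psap, Grn, Tfeb and Pld4 were called, but 17 were lower at an adjusted p no higher than 0.05 at any fold and 0 higher, where 8.92% of all genes tested were lower at any fold.

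Genes of conventional DCs and of monocytes and macrophages also fell in part. These lists, like the pDC list, were assembled with earlier results of these data known, so their shares cannot be ranked against one another. Of all genes tested, 2.84% were lower. Of 15 genes of type 1 conventional DCs, 6 were lower, among them Clec9a, the receptor for actin on dead cells, at 4.89, 3.81 and 2.6 FPKM in WT against 0, 0.03 and 0 FPKM in KO (log2 fold change -2.21, SE 0.18, limma adjusted p 1.2e-04). Of 17 genes of type 2 conventional DCs, 9 were lower, with a median of -1.15. Clec10a, a lectin that binds galactose-type sugars, was 31.1, 50.5 and 40.5 FPKM in WT against 2.28, 2.47 and 1.65 FPKM in KO (log2 fold change -3.72, SE 0.19, limma adjusted p 7.5e-06). Ifi30, the thiol reductase of antigen processing, was 45.4, 76.6 and 60.2 FPKM in WT against 4.95, 5.14 and 6.16 FPKM in KO (log2 fold change -3.24, SE 0.18, limma adjusted p 1.4e-05). Of 26 monocyte and macrophage genes, 12 were lower and none higher, the list summing to 1753 to 1909 FPKM in the WT libraries and 501 to 738 FPKM in the KO libraries. Tyrobp, the DAP12 signalling adaptor, was 366, 448 and 392 FPKM in WT against 39.02, 62.1 and 60.6 FPKM in KO (log2 fold change -2.9, SE 0.18, limma adjusted p 2.4e-05). Mpeg1, the pore-forming protein perforin-2, was 384, 248 and 256 FPKM in WT against 51.3, 47.03 and 59.6 FPKM in KO (log2 fold change -2.45, SE 0.18, limma adjusted p 5.5e-05). Many of these genes are shared between pDCs, conventional DCs and monocytes, and Clec10a, Cd209a, Ly6c2, Mpeg1 and Pld4 stood in more than 1 of the lists. Lyz2, the lysozyme gene of monocytes and macrophages, was 51.1, 88.2 and 48.5 FPKM in WT against 47.3, 81.2 and 71.8 FPKM in KO, with overlapping groups.

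Receptors of haematopoietic cytokines moved both ways, with 5 lower and 3 higher of 42. Csf2rb2, a beta chain of the interleukin 3 receptor, was 52.3, 43.6 and 38.9 FPKM in WT against 2.92, 3.18 and 4.37 FPKM in KO (log2 fold change -3.36, SE 0.16, limma adjusted p 6.3e-06). Csf2rb, the common beta chain of the receptors for GM-CSF, interleukin 3 and interleukin 5, was 30.7, 28.8 and 24.3 FPKM in WT against 7.76, 8.07 and 9.17 FPKM in KO (log2 fold change -1.63, SE 0.12, limma adjusted p 6.8e-05). These genes are neighbours of similar sequence, so reads may have been split between them. Csf1r, the M-CSF receptor whose protein is CD115, was 26.3, 24.3 and 14.5 FPKM in WT against 5.05, 5.75 and 7.37 FPKM in KO (log2 fold change -1.65, SE 0.22, limma adjusted p 0.0018). On the higher side, Il1r2, the decoy receptor of interleukin 1, was 3.76, 4.06 and 2.78 FPKM in WT against 20.2, 15.8 and 21.9 FPKM in KO (log2 fold change 2.16, SE 0.16, limma adjusted p 7.0e-05). The chains of the interleukin 18 receptor rose as well. Il18r1 was 8.1, 5.35 and 7.66 FPKM in WT against 22.98, 20.2 and 24.1 FPKM in KO (log2 fold change 1.56, limma adjusted p 3.6e-04). Il18rap was 25.1, 18.5 and 17.96 FPKM in WT against 39.4, 42.5 and 45.1 FPKM in KO (log2 fold change 1.02, limma adjusted p 0.0019). All 3 genes that rose showed no overlap between genotypes.

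Adhesion and signalling genes were lower in many families, where 2.84% of all genes tested were lower. Itgb7, the integrin chain that pairs with alpha 4 and alpha E, was 91.6, 108 and 74.1 FPKM in WT against 13.6, 13.6 and 12.2 FPKM in KO (log2 fold change -2.69, SE 0.14, limma adjusted p 9.0e-06), and 7 of 23 leukocyte integrins and adhesion molecules fell. Cdh5, the VE-cadherin of endothelial cells, was 15.9, 19.5 and 20.1 FPKM in WT against 0.26, 0.24 and 0.24 FPKM in KO (log2 fold change -3.96, SE 0.13, limma adjusted p 1.6e-06). Of 24 chemokines and receptors 4 fell, among them Cxcr3, Ccr9 and Cx3cr1, while Cxcr4 was 84.2, 156 and 157 FPKM in WT against 44.7, 78.5 and 76.04 FPKM in KO (log2 fold change -0.97, limma adjusted p 0.055; adjusted p 2.8e-04 with the replicate block). Among 26 Src-family, Tec and Syk kinases and adaptors the falls included Fgr and Tyrobp, with Fgr at 38.2, 38.9 and 33.02 FPKM in WT against 1.87, 1.43 and 1.06 FPKM in KO (log2 fold change -3.95, SE 0.15, limma adjusted p 1.9e-06). Cybb, the membrane subunit of the phagocyte NADPH oxidase, was 53.99, 31.4 and 33.8 FPKM in WT against 0.77, 1.33 and 1.31 FPKM in KO (log2 fold change -4.22, SE 0.21, limma adjusted p 7.7e-06) and was the single called gene of the 6 oxidase subunits. At any fold, 4 of the 6 were lower and 0 higher at an adjusted p no higher than 0.05, against 8.92% of all genes tested on the lower side. The median log2 fold change of the 6 was -0.90. Of 25 annexins, S100 proteins, galectins and partners 8 fell and 1 rose (Lmna, lamin A). The falls were led in FPKM by Lgals1, galectin 1, at 486, 663 and 589 FPKM in WT against 81.8, 118 and 101 FPKM in KO (log2 fold change -2.52, SE 0.16, limma adjusted p 3.0e-05).

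Other large falls came from genes of varied function, of which Havcr1 and Upb1 also stood in the pDC list. Pltp, the phospholipid transfer protein, was 17.7, 14.4 and 12.9 FPKM in WT against 0.06, 0 and 0.03 FPKM in KO. Ddr1, a collagen receptor kinase, was 11.4, 14.3 and 11.1 FPKM in WT against 0.01, 0.03 and 0 FPKM in KO. Havcr1, the TIM-1 receptor for phosphatidylserine, was 19.4, 9.4 and 9.16 FPKM in WT against 0.03, 0 and 0 FPKM in KO. All 3 were at or close to 0 in KO. Upb1, an enzyme of pyrimidine breakdown, was 12.3, 14.2 and 11.8 FPKM in WT against 0.12, 0.14 and 0.09 FPKM in KO. Lrrc16a, a regulator of actin capping, was 21.7, 14.9 and 14.3 FPKM in WT against 0.43, 0.4 and 0.48 FPKM in KO. For these 5 genes the KO values were below the 1 FPKM added before taking logs, so their log2 fold changes of -3.95 to -3.62 understate the ratio of the means. Ptms, which encodes the acidic nuclear protein parathymosin, was 225, 248 and 224 FPKM in WT against 29.8, 34.8 and 34.4 FPKM in KO (log2 fold change -2.78, SE 0.10, limma adjusted p 1.9e-06). Cox6a2, a muscle-type subunit of cytochrome c oxidase that pDCs also express, was 333, 371 and 356 FPKM in WT against 103, 127 and 119.8 FPKM in KO (log2 fold change -1.59, SE 0.11, limma adjusted p 4.3e-05).

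A part of the interferon-stimulated genes fell. Of 43 tested, 7 or 16.3% fell, against 2.84% of all genes tested, among them Bst2, Ifi27l2a, Mx1, Trim30a, Stat2 and Irf7, and none rose. The median was 0.03, and the list summed to 1267 to 1282 FPKM in the WT libraries and 662 to 750.5 FPKM in the KO libraries. Stat2, the signal transducer of the type I interferon receptor, was 27.8, 27.8 and 22.8 FPKM in WT against 10.1, 10.7 and 10.7 FPKM in KO (log2 fold change -1.23, SE 0.11, limma adjusted p 2.1e-04). Ifit3, an inhibitor of viral replication, was 0.63, 0.5 and 0.63 FPKM in WT against 0.31, 1.04 and 0.69 FPKM in KO and did not pass the test. Usp18, the protease that removes ISG15, was 7.82, 9.73 and 11.2 FPKM in WT against 3.65, 5.43 and 4.03 FPKM in KO (log2 fold change -0.98, limma adjusted p 0.0065). Gbp2, Gbp3 and Gbp7, guanylate binding proteins induced by interferon gamma, were higher at an adjusted p no higher than 0.05 but short of the fold required, with log2 fold changes of 0.87 (limma adjusted p 0.032), 0.71 (limma adjusted p 0.0091) and 0.9 (limma adjusted p 0.0033). None of 19 MHC class I genes was called. B2m, their shared light chain, was 957, 933 and 993 FPKM in WT against 935, 1092 and 1088 FPKM in KO with overlapping groups. The class II gene H2-Ab1 was 28.5, 36.3 and 41.9 FPKM in WT against 49.4, 47.7 and 62.8 FPKM in KO (log2 fold change 0.58, limma adjusted p 0.048).

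Cell cycle genes gave few calls but a wide shift of small size. Cdkn2d, an inhibitor of the kinases CDK4 and CDK6, was 54.6, 86.8 and 81.6 FPKM in WT against 16.4, 25.9 and 19.3 FPKM in KO (log2 fold change -1.8, SE 0.21, limma adjusted p 8.4e-04). Cdkn2c, its relative, was 35.3, 44.03 and 46.4 FPKM in WT against 11.6, 14.01 and 10.4 FPKM in KO (log2 fold change -1.72, SE 0.14, limma adjusted p 1.3e-04). Ccnd3, the cyclin that activates the same kinases, was 355, 453 and 438 FPKM in WT against 179, 203 and 183 FPKM in KO (log2 fold change -1.13, SE 0.12, limma adjusted p 6.1e-04). These were the only called members of 56, an inhibitor pair and an activator falling together. At any fold 20 were lower and 1 (Cdk6) higher, with a median of -0.25. Of all genes tested, 8.92% were lower and 5.41% higher at any fold. Mki67, the proliferation antigen Ki-67, was 92.6, 72.8 and 87.7 FPKM in WT against 56.02, 50.3 and 65.6 FPKM in KO (log2 fold change -0.55, limma adjusted p 0.028), without overlap. Mxd3, a partner of MAX that opposes MYC, was 24.4, 33.5 and 31.3 FPKM in WT against 7.89, 8.91 and 8.43 FPKM in KO (log2 fold change -1.7, SE 0.13, limma adjusted p 9.4e-05). Of 35 genes of cholesterol and fatty acid metabolism, Fdps, the farnesyl diphosphate synthase, fell from 89.2, 87.1 and 78.4 to 33.2, 34.0 and 27.9 FPKM (log2 fold change -1.4, SE 0.11, limma adjusted p 9.4e-05) and Lpl rose. At any fold 12 of them were lower, including Sqle, Fdft1, Mvd and Msmo1, beside the same 8.92% of all genes tested.

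**Figure D4:**
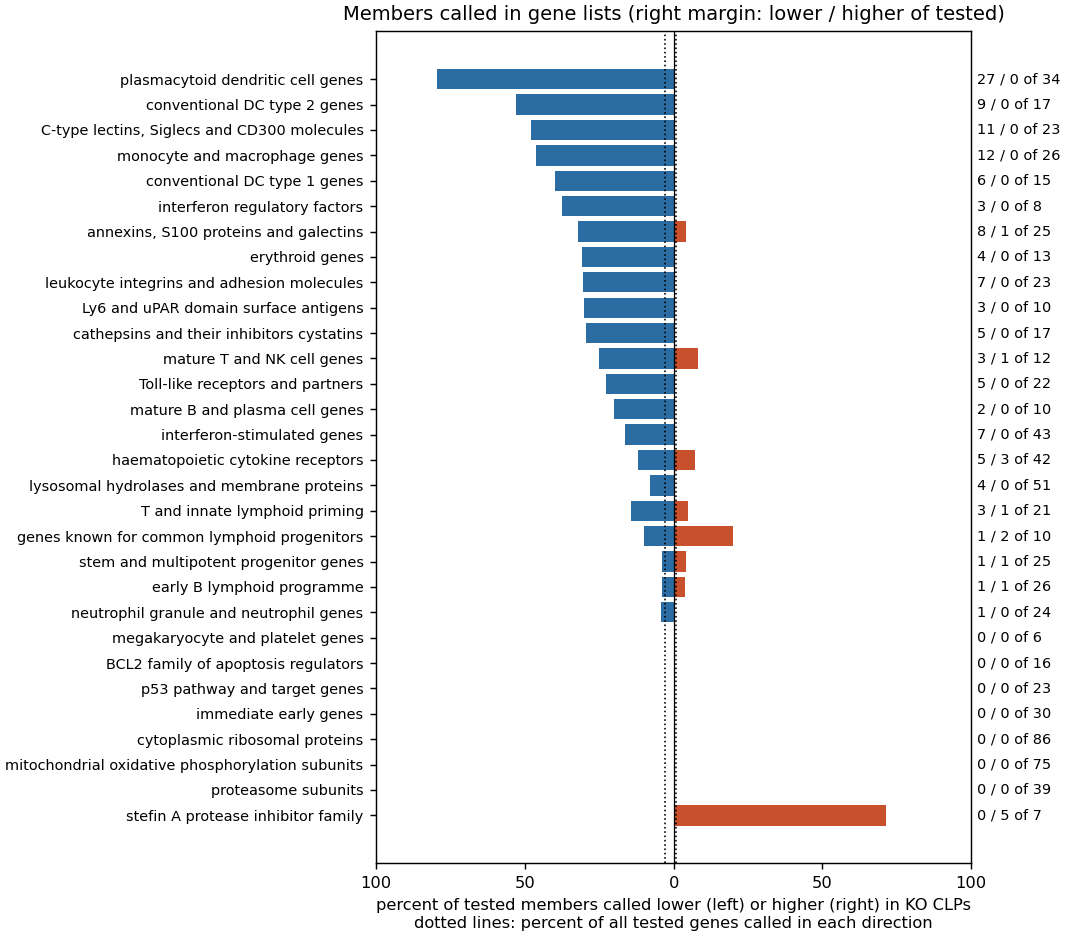
Percent of the tested members of 30 gene lists called lower (blue, to the left) or higher (orange, to the right) in KO CLPs, with the counts of lower, higher and tested members in the right margin and dotted lines at 2.84% and 0.673%, the shares of all genes tested. The pDC list stands at 27 of 34 lower, and the stefin A family is the 1 list with most members higher.

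Lists that touch TRIM33's known partners and general cell state held few or no called genes, as did the genes tested as a whole (2.84% lower and 0.673% higher). Of 28 TIF1, TGF-beta and BMP signalling genes only Pmepa1, an inhibitor of SMAD signalling that TGF-beta itself induces, was called, at 3.45, 3.06 and 2.43 FPKM in WT against 0.6, 0.45 and 0.59 FPKM in KO (log2 fold change -1.36, SE 0.14, limma adjusted p 4.2e-04), and Smad7 was 84.3, 71.2 and 63.7 FPKM in WT against 79.5, 64.6 and 64.7 FPKM in KO with overlapping groups. Trim24, another TIF1 gene, was 11.5, 8.29 and 8.7 FPKM in WT against 9.16, 8.91 and 9.54 FPKM in KO. Trim28 was 252, 269 and 246 FPKM in WT against 308, 271 and 242 FPKM in KO, and both overlapped between genotypes. No member was called among 86 ribosomal protein genes, 75 oxidative phosphorylation subunits, 39 proteasome subunits, 19 heat shock chaperones or 29 genes of the unfolded protein response. Their median log2 fold changes were, in that order, 0.32, 0.02, 0.02, 0.36 and -0.18, against 0.01 over all genes tested. At any fold, 7 of the 29 unfolded protein response genes were lower and 0 higher at an adjusted p no higher than 0.05. That stands beside 8.92% of all genes tested on the lower side. The ribosomal list had 0 lower and 1 higher at any fold, the heat shock list 0 and 2, and the others 0 each way. The ribosomal list summed to 86989 to 113409 FPKM in the WT libraries and 112103 to 134255 FPKM in the KO libraries. Hspa8, a heat shock chaperone that is also constitutive, was 1599, 2377 and 2854 FPKM in WT against 2041, 2514 and 2945 FPKM in KO, with library 1 the lowest of each genotype. None was called either among 16 BCL2 family genes, 23 p53 pathway genes and 30 immediate early genes, each of which had 1 lower gene with the replicate block. At any fold 0 lower and 1 higher genes of the BCL2 family and 3 lower and 1 higher genes of the p53 list had an adjusted p no higher than 0.05. Among all genes tested 8.92% were lower and 5.41% higher at any fold. Fos, an immediate early gene that dissociation and sorting are known to induce, was 1106, 2304 and 2313 FPKM in WT against 963, 1662 and 1966 FPKM in KO, again lowest in library 1 of each genotype. Of 32 P-TEFb and elongation factor genes 1 was higher, Ctr9, a subunit of the PAF1 complex, at 67.6, 45.7 and 49.4 FPKM in WT against 171, 121 and 92.7 FPKM in KO (log2 fold change 1.2, SE 0.23, limma adjusted p 0.0098), and it fell short of the fold required without KO library 1.

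Markers of other bone marrow cells were found in all libraries, and their sums moved in both directions, each rise resting mainly on a single gene. The calls stand beside 2.84% lower and 0.673% higher among all genes tested. The 21 listed erythroid genes summed to 193 to 277 FPKM in the WT libraries and 134 to 153 FPKM in the KO libraries, with none at 0 in all libraries of a genotype, and 4 of 13 tested fell (Hba-a1, Hba-a2, Hbb-bs and Blvrb). Hba-a1, an alpha globin gene, was 26.1, 16.3 and 16.98 FPKM in WT against 1.26, 2.19 and 1.69 FPKM in KO (log2 fold change -2.92, SE 0.20, limma adjusted p 4.2e-05), and the near-identical copies Hba-a1 and Hba-a2 may share reads. The 24 neutrophil genes summed to 488 to 1166 FPKM in the WT libraries and 285 to 487 FPKM in the KO libraries, with no gene of the list at 0 in all libraries of a genotype. Only Hp was called (log2 fold change -1.24, SE 0.33, limma adjusted p 0.039), a call that was lost without any 1 of 5 of the 6 libraries, whereas 10 were lower with the replicate block. S100a8 was 73.99, 209 and 46.2 FPKM in WT against 12.5, 57.1 and 49.8 FPKM in KO, with overlapping groups and the highest value in WT library 2. Elane, neutrophil elastase, was 25.98, 37.03 and 61.7 FPKM in WT against 11.5, 15.1 and 28.2 FPKM in KO. The 13 listed basophil and mast cell genes summed to 7.8 to 33.9 FPKM in the WT libraries and 6.39 to 16.02 FPKM in the KO libraries, with 1 at 0 in all libraries and 0 of 7 tested called. The 17 listed megakaryocyte genes summed to 26.4 to 31.1 FPKM in the WT libraries and 35.1 to 37.4 FPKM in the KO libraries, with 0 of 6 tested called, so that every KO library was above every WT library. Most of that rise was Nfe2, at 12.51, 14.34 and 10.66 FPKM in WT against 19.08, 20.02 and 18.11 FPKM in KO. Without Nfe2 the sums overlapped between genotypes. The 14 mature B and plasma cell genes summed to 503 to 610.5 FPKM in the WT libraries and 406 to 515 FPKM in the KO libraries, and 2 fell (Cd22 and Sdc1). The 19 mature T and NK cell genes summed to 83.6 to 95.2 FPKM in the WT libraries and 106 to 123 FPKM in the KO libraries, where Cd4, Cd8a and Klrd1 fell and Nkg7 rose. Nkg7 alone was 19.64, 30.53 and 34.97 FPKM in WT against 66.87, 81.55 and 74.15 FPKM in KO. Without Nkg7 the list sum was lower in every KO library than in any WT library. The part of such cells in the changes of the other genes was not tested. Mpo, the myeloperoxidase of granulocyte and monocyte progenitors, was 117, 131 and 124 FPKM in WT against 146, 157 and 139 FPKM in KO (log2 fold change 0.25, limma adjusted p 0.13).

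The genes that rose were fewer and less abundant. Lpl, the lipoprotein lipase that frees fatty acids from triglyceride, was 0.53, 0.51 and 0.34 FPKM in the WT libraries and 16.02, 17.8 and 12.5 FPKM in the KO libraries (log2 fold change 3.48, SE 0.15, limma adjusted p 4.0e-06), a 33.5-fold difference in mean FPKM. Camk2b, a calcium and calmodulin dependent kinase known from neurons, was 1.48, 1.42 and 1.02 FPKM in the WT libraries and 19.4, 19.6 and 25.9 FPKM in the KO libraries (log2 fold change 3.29, SE 0.15, limma adjusted p 5.4e-06). Prkcq, the protein kinase C theta of T cell receptor signalling, was 2.94, 2.27 and 2.23 FPKM in the WT libraries and 26.1, 22.03 and 17.8 FPKM in the KO libraries (log2 fold change 2.71, SE 0.16, limma adjusted p 1.7e-05). In each of the 3 genes the KO libraries were far above the WT libraries. Fcgr2b, the inhibitory receptor for IgG, was 21.5, 22.4 and 20.8 FPKM in the WT libraries and 137, 171 and 183 FPKM in the KO libraries, the largest rise in mean FPKM of any gene called (log2 fold change 2.86, SE 0.12, limma adjusted p 4.0e-06). Among 6 Fc receptor genes Fcgr2b was the 1 that rose, while the neonatal receptor Fcgrt and the signalling chain Fcer1g fell. Fcer1g was 115, 159.8 and 126 FPKM in WT against 38.3, 31.6 and 30.9 FPKM in KO (log2 fold change -1.95, SE 0.14, limma adjusted p 6.1e-05).

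Other genes that rose had varied functions. Gimap4, a GTPase of the immunity-associated family found in lymphocytes, was 3.43, 6.22 and 6.68 FPKM in WT against 22.6, 39.6 and 44.6 FPKM in KO (log2 fold change 2.49, SE 0.28, limma adjusted p 7.5e-04). It lies with Gimap7, Gimap8, Gimap9 and Gm5111 in a stretch of chromosome 6, bounded by called genes, in which 5 of 9 tested genes were higher. Gimap6 beside them was 97.98, 101 and 119.6 FPKM in WT against 181, 201 and 257 FPKM in KO (log2 fold change 0.99, limma adjusted p 0.0031). Egfl7, a secreted factor of endothelial and progenitor cells, was 88.6, 114 and 107 FPKM in WT against 222, 249.5 and 226 FPKM in KO (log2 fold change 1.17, SE 0.12, limma adjusted p 4.3e-04). Ltb, lymphotoxin beta, was 8.54, 9.2 and 8.16 FPKM in WT against 19.1, 30.8 and 31.5 FPKM in KO (log2 fold change 1.52, SE 0.18, limma adjusted p 0.0010). All 3 genes called here had their lowest KO value well above the highest WT value. Tnfsf11, which encodes RANKL, was 6.44, 2.65 and 4.73 FPKM in WT against 21.2, 8.71 and 13.2 FPKM in KO (log2 fold change 1.43, SE 0.33, limma adjusted p 0.023). Nkg7 was 19.6, 30.5 and 34.97 FPKM in WT against 66.9, 81.5 and 74.2 FPKM in KO (log2 fold change 1.39, SE 0.19, limma adjusted p 0.0022). Hmga2, a chromatin protein of fetal stem cells, was 4.28, 2.73 and 2.69 FPKM in WT against 14.1, 12.7 and 15.8 FPKM in KO (log2 fold change 1.86, SE 0.17, limma adjusted p 1.9e-04). These were separated between genotypes as well. Dnmt3b, a de novo DNA methyltransferase, was 17.4, 18.7 and 19.6 FPKM in WT against 49.9, 37.5 and 34.5 FPKM in KO (log2 fold change 1.07, SE 0.14, limma adjusted p 0.0017), a call lost without KO library 1. Sfmbt2, a Polycomb protein, was 0.83, 0.54 and 0.61 FPKM in WT against 3.94, 4.08 and 4.22 FPKM in KO (log2 fold change 1.62, SE 0.12, limma adjusted p 7.4e-05). Ctla2b, a cysteine protease inhibitor, was 3.58, 4.47 and 6.72 FPKM in WT against 13.3, 17.2 and 26.3 FPKM in KO (log2 fold change 1.73, SE 0.26, limma adjusted p 0.0032). Its neighbour Ctla2a rose as well (log2 fold change 1.2, SE 0.18, limma adjusted p 0.0032).

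The stefin A genes, intracellular inhibitors of cysteine cathepsins, form a cluster of near-identical copies on chromosome 16 between 36156811 and 36408363. Of 7 tested, 5 were higher and none lower, against 0.673% of all genes tested on the higher side, with a median of 1.81. Stfa1 was 0.56, 3.87 and 0 FPKM in the WT libraries and 4.21, 29.2 and 14.3 FPKM in the KO libraries (log2 fold change 2.77, SE 0.70, limma adjusted p 0.033). Gm5483 was 0.69, 0.69 and 0 FPKM in WT against 2.54, 16.5 and 8.17 FPKM in KO (log2 fold change 2.54, SE 0.51, limma adjusted p 0.012). BC100530 was 0.24, 2.85 and 0 FPKM in WT against 2.47, 19.96 and 8.49 FPKM in KO (log2 fold change 2.39, SE 0.67, limma adjusted p 0.049), and library 2 was the highest of the KO libraries for each of the 3. Their single-copy values are uncertain, because reads of copies this alike can be divided between them. The calls of Stfa1, Stfa2l1 and BC100530 were lost under at least 5 of the alternatives each, including those without KO library 2 and without KO library 3. With the replicate block, which called 0.746% of all genes higher, 6 of the 7 were higher.

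Genes listed at 0 in every library of one genotype and at a mean of at least 1 FPKM in the other were mostly short RNAs. There were 17 such genes listed at 0 in KO, of which 9 were above 0 in all 3 WT libraries, and 12 listed at 0 in WT, of which 3 were above 0 in all 3 KO libraries. The protein-coding genes among those listed at 0 in KO were Klk1, Klra17, AF067063, Cd209d and Nupr1. Sva, a seminal vesicle antigen gene, was the only protein-coding gene listed at 0 in WT, and it was 3.95, 4.14 and 4.26 FPKM in KO. Snord91a and Snord53, snoRNAs listed at 0 in WT, were 6.6, 6.49 and 4.46 FPKM and 6.56, 1.61 and 4.99 FPKM in KO. Of the called genes 332 lower and 72 higher were protein-coding, while 8 lower and 3 higher were annotated as microRNAs and 1 lower and 4 higher as snoRNAs. Poly-A libraries are not made to measure such short RNAs, and where 1 lies inside another gene, their reads cannot be told apart. Mir1905 lies within 100000 bases of Lmna, which was also higher. Rn7sk, the 7SK RNA that holds P-TEFb inactive, was 8.33, 17.3 and 9.59 FPKM in WT against 23.8, 32.9 and 27.5 FPKM in KO (log2 fold change 1.24, SE 0.24, limma adjusted p 0.011), also in libraries selected for poly-A.

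Some called genes lay side by side. Joining called genes of one direction less than 100000 bases apart gave 32 groups with 72 of the lower genes, 6 of them with 3 or more members, and 8 groups with 23 of the higher genes, 3 of them with 3 or more. Each span below runs from the first to the last called gene of its group, so the genes at its ends are called by construction. How often tested genes lie this close in general was not counted, so the groups are a description of position only. On chromosome 6, between 124858444 and 124917946, all 4 tested genes of the span were lower (Gpr162, Cd4, Lag3 and Ptms). On chromosome 7, between 3836808 and 4073567, all 4 were lower (Pira2, Gm14548, Lilra6 and Lair1), receptors of the paired immunoglobulin-like and LAIR families. On chromosome 8, between 71534255 and 71559015, the neighbours of Bst2, Mvb12a and Tmem221, were lower with it. Itgax, Itgad and Cox6a2 were 3 lower genes of 4 tested on chromosome 7 between 128129526 and 128206366.

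The promoter motifs were counted in the 250 bases before the start for 9685 tested genes with a RefSeq window, of which 256 were lower and 62 higher. GAGGAAGT was found in 2.72% of the windows of tested genes, in 7.42% of those of lower genes (19 windows) and in 1.61% of those of higher genes (1 window, Il18rap), and in 2.44% of all 27025 windows. Pira2, Pirb, Gm14548 and Lilra6, 4 of the 19 genes, are members of 1 family with alike sequences. The others included Ly6c2 and Cxcr3, printed above, and Kmo, Gapt, Tagap, Cmtm3, Rufy1 and Nceh1. CAGGTG was found in 14.8% of tested windows, 21.9% of lower and 22.6% of higher ones, so its share was above that of all tested genes in both directions. The composite of ETS and IRF cores was found in 1.97% of tested, 3.52% of lower and 3.23% of higher windows, and the pair of IRF cores in 2.78%, 4.3% and 1.61%. The median GC content of the windows was 59.6% for tested, 58.8% for lower and 52.6% for higher genes. These are descriptions of letters in a window, and no test was made of them.

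The CLP response was set against that of MPPs, the multipotent progenitors, and of CD115- CDPs, common DC progenitors without the M-CSF receptor, in one limma fit over all 18 libraries and 12421 genes. At an adjusted p no higher than 0.05 the effect differed from that in MPPs for 4.09% of genes (1.94% more negative and 2.15% more positive in CLPs) and from that in CD115- CDPs for 0.394% (0.378% more negative and 0.0161% more positive). The genes compared here were chosen for a large effect in CLPs, which favours a larger effect there, so the direction of their differences is a description of the selection as well as of the genes. Of the 341 genes lower in CLPs that could be compared, 161 differed from MPPs, 158 of them with the larger effect in CLPs, and 46 differed from CD115- CDPs, all with the larger effect in CLPs. Of the 83 higher genes 25 differed from MPPs and 2 from CD115- CDPs. With the replicate block 14.8% of all genes differed from MPPs (5.47% more negative and 9.36% more positive) and 0.733% from CD115- CDPs (0.66% and 0.0725%). In MPPs, KO library 3 stood apart from its group, with a Trim33 of 4.80 FPKM against 9.71 and 11.66 FPKM, and an Irf8 of 50.36 FPKM against 18.40 and 17.79 FPKM in KO libraries 1 and 2. In CD115- CDPs, KO library 3 also stood apart, with a Trim33 of 4.03 FPKM against 9.64 and 8.28 FPKM and an Irf8 of 282.41 FPKM against 95.02 and 89.06 FPKM. The WT libraries of that population spread as widely, with an Irf8 of 476.72, 235.79 and 831.4 FPKM.

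**Figure D5:**
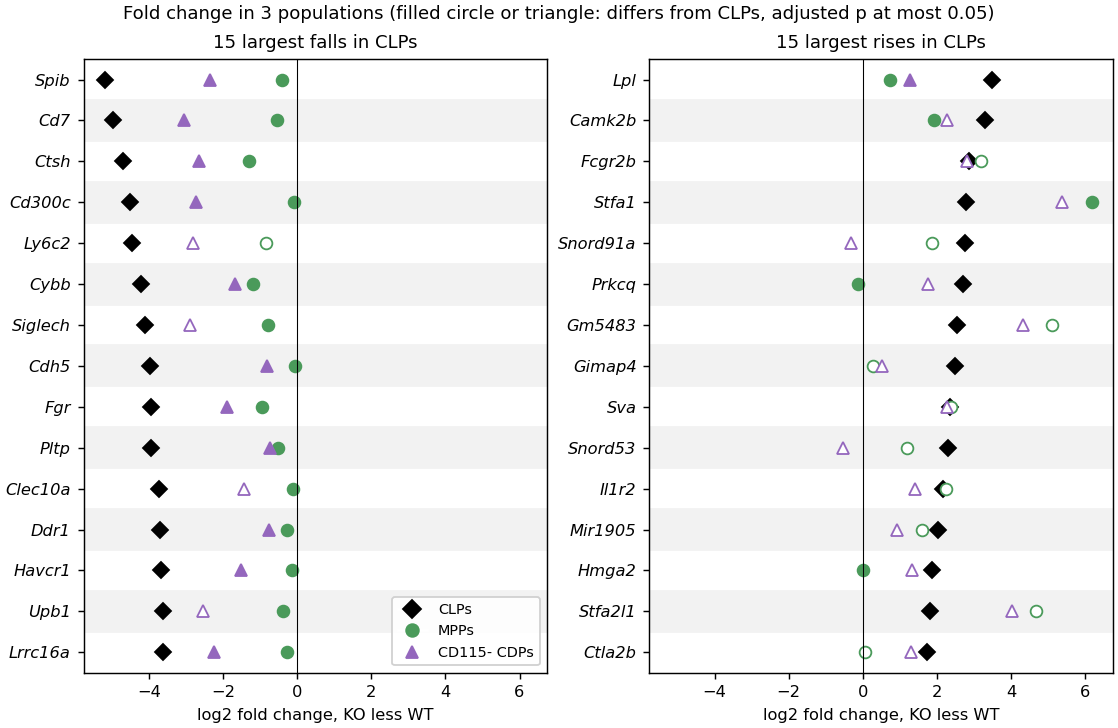
Log2 fold change, KO less WT on log2(FPKM + 1), of the 15 largest falls (left) and 15 largest rises (right) among genes called in CLPs with no overlap between genotypes, shown for CLPs (diamonds), MPPs (circles) and CD115- CDPs (triangles), with a filled circle or triangle where the effect differs from that in CLPs at an adjusted p no higher than 0.05. Among the falls 14 differ from MPPs and 11 from CD115- CDPs, and among the rises 5 and 1.

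For the 15 largest falls the difference from MPPs passed the test in 14 and that from CD115- CDPs in 11, each with the larger effect in CLPs. With 1 library left out these counts were 14 to 15 and 8 to 13, with 14 and 9 without MPP KO library 3 and 15 and 8 without CD115- CDP KO library 3. With the replicate block they were 15 and 13, and with a pseudocount of 0.1 they were 14 and 6. Many of these genes were expressed little in the other populations, and on the log2(FPKM + 1) scale had little room to fall there. Spib averaged 1.43 FPKM and Siglech 1.84 FPKM in WT MPPs. Cdh5 was 0.0967 FPKM in WT MPPs and 0.937 FPKM in WT CD115- CDPs, so it had little room to fall there, and Ddr1, Pltp, Havcr1, Upb1, Lrrc16a and Cd300c were likewise below 1 FPKM in WT MPPs. In WT CD115- CDPs Pltp averaged 0.83 FPKM and Ddr1 0.78 FPKM. Cd7 averaged 7.37 FPKM in WT MPPs against 4.76 FPKM in KO MPPs (log2 fold change -0.56) and 49.02 FPKM in WT CD115- CDPs against 4.98 FPKM in KO CD115- CDPs (log2 fold change -3.06), and differed from CLPs in both. Ctsh was 83.1 FPKM in WT CD115- CDPs, close to its CLP level, and had a log2 fold change of -2.66 there (difference -2.04, SE 0.41, limma adjusted p 0.047). That adjusted p was between 7.0e-04, without CD115- CDP WT library 3, and 0.17, without CLP WT library 2, when 1 library was left out. Siglech, Ly6c2, Clec10a and Upb1 were the falls whose difference from CD115- CDPs did not pass the test.

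Of the 15 largest rises without overlap, a set that leaves out BC100530, 5 differed from MPPs and 1 from CD115- CDPs. Fcgr2b had a log2 fold change of 3.18 in MPPs and 2.8 in CD115- CDPs, and the differences from CLPs were -0.32 (SE 0.39, limma adjusted p 0.69) and 0.06 (SE 0.39, limma adjusted p 0.99). Sva was listed at 0 in every WT MPP library and was 4.21 FPKM in KO MPPs and 4.1 FPKM in KO CD115- CDPs. Stfa1 averaged 0.557 FPKM in WT MPPs against 118 FPKM in KO MPPs, a larger effect than in CLPs (difference -3.4, SE 0.86, limma adjusted p 0.038). Lpl, Camk2b, Prkcq and Hmga2 had larger effects in CLPs than in MPPs. Prkcq averaged 11.2 FPKM in WT MPPs against 10.5 FPKM in KO MPPs, a level that WT CLPs did not reach and KO CLPs exceeded. Hmga2 was 7.39 and 7.36 FPKM in WT and KO MPPs. Lpl alone differed from CD115- CDPs as well, where it averaged 0.557 FPKM in WT against 3.03 FPKM in KO (difference 2.2, SE 0.45, limma adjusted p 0.048; adjusted p 0.079 with the replicate block).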

How the data were processed

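CLPs, MPPs and CD115- CDPs from bone marrow of WT and KO mice were each sequenced as 3 libraries per genotype on a BGISEQ-500. The authors filtered the reads with SOAPnuke, aligned them to mm10 and quantified genes, and deposited FPKM values in a table for each population. The submitters' processing notes name Bowtie2 2.2.5, HISAT2 2.0.4 and RSEM 1.2.12. FPKM divides by transcript length and library total, so it keeps shares within a library and not amounts of RNA per cell.

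Genes averaging 0.5 FPKM or more in the 6 CLP libraries were tested with limma 3.58.1 in R 4.3.3, with a trended variance, on log2(FPKM + 1), KO against WT, with Benjamini-Hochberg adjustment over 12339 genes. A call needed an adjusted p no higher than 0.05 and a log2 fold change of 1 or more in size. Differences from MPPs and CD115- CDPs were tested as interactions over 18 libraries, the tables having been normalized separately. With 3 libraries a group an exact permutation test of 1 gene cannot give a p below 0.10, so none was used. Depth was estimated from the steps between low FPKM values, and TPM was computed by rescaling each library to 1 sum. The p-values measure the spread between these libraries.

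Deviations from the group means of same-numbered WT and KO libraries had correlations of 0.40, 0.33 and 0.13 for replicate numbers 1, 2 and 3. Between different numbers they were -0.40 to 0.23. WT library 3 went more with KO library 2 (0.23) than with KO library 3 (0.13). The sources used here state no pairing, so whether the numbers pair the samples is uncertain. A fit with the replicate number as a block was therefore an alternative, beside a pseudocount of 0.1, no filter, a filter of 5 FPKM, TPM, median-ratio and quantile scaling, no variance trend and leaving out each library.

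Named genes were the 15 largest changes without overlap between genotypes and the 10 largest FPKM differences in each direction, the genes listed at 0 in 1 genotype, the sort and lymphoid markers, up to 4 called members of each of 56 lists, and 2 members of lists with no call. Some genes that meet this rule are not reported here. Others named in the text were chosen after their values were seen. The members and lists were chosen with earlier results of these data known. Promoter windows came from RefSeq, and 99.9% of tested genes matched its annotation. The scripts were tested on simulated data.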

Additional observations from a re-analysis of the deposited data

Results flagged for a closer look

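Among the 15 largest falls and 15 largest rises of CLPs, 31 differences from the KO effect in another population passed a limma interaction test at an adjusted p no higher than 0.05. Each is given as the CLP effect less the other effect, on log2(FPKM + 1). The genes were chosen for their effect in CLPs, which favours a larger effect there.

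Against MPPs, the falls that were larger in CLPs included differences of -4.79 for Spib, -4.44 for Cd300c and -4.43 for Cd7. Siglech differed by -3.31, Clec10a by -3.60, Havcr1 by -3.54, Cdh5 by -3.90 and Ddr1 by -3.43. Of these, Spib, Cd300c, Siglech, Havcr1, Cdh5 and Ddr1 averaged below 2 FPKM in WT MPPs and could fall little there. Enzymes and signalling genes followed, with -3.40 for the cathepsin gene Ctsh, -3.02 for the oxidase subunit Cybb, -3.01 for the kinase Fgr, -3.43 for Pltp, -3.24 for Upb1 and -3.35 for Lrrc16a. On the higher side Lpl differed by 2.75, Prkcq by 2.84, Hmga2 by 1.86 and Camk2b by 1.36, while Stfa1 had the larger rise in MPPs, a difference of -3.40. The adjusted p of Camk2b reached 0.11 and that of Stfa1 0.10 when 1 library was left out.

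Against CD115- CDPs, the falls that were larger in CLPs differed by -2.85 for Spib, -1.92 for Cd7, -1.78 for Cd300c, -2.04 for Ctsh and -2.54 for Cybb. Cdh5 differed by -3.14, Fgr by -2.06, Pltp by -3.21, Ddr1 by -2.94, Havcr1 by -2.15 and Lrrc16a by -1.39. Cdh5, Pltp and Ddr1 averaged below 1 FPKM in WT CD115- CDPs and could fall little there. With 1 library left out the highest adjusted p was 0.13 for Cybb (0.054 without MPP KO library 3), 0.17 for Ctsh and 0.089 for Lrrc16a. Lpl was the only rise that differed from CD115- CDPs, by 2.2, with an adjusted p of up to 0.16 when 1 library was left out.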

How the results depend on the processing

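Of the CLP calls, 351 lower and 83 higher genes became 476 and 148 with a pseudocount of 0.1, 228 and 55 with a filter of 5 FPKM, and 1101 and 667 with no minimum fold. They were 384 and 92 with the replicate block, which kept all 434 calls. Leaving out 1 library gave 330 to 391 lower and 66 to 98 higher genes. The share of called genes on the lower side was 76.3 to 84.2% over the alternatives with a minimum fold, and 62.3% with none.

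The 241 genes with a more negative effect in CLPs than in MPPs became 116 with a filter of 5 FPKM and 679 with the replicate block. The 267 with a more positive effect became 148 with a pseudocount of 0.1, 456 without a filter, 69 with a filter of 5 FPKM and 1163 with the replicate block. Against CD115- CDPs, 47 more negative genes became 19, 79, 9 and 82 under those 4 settings in that order, and 2 more positive genes became 0, 4, 0 and 9, 0 with TPM, and 1 each with median-ratio scaling and quantile normalization. Without 1 library these 4 counts were 150 to 370, 107 to 772, 32 to 87 and 0 to 6. The highest values came without MPP KO library 3 (370 and 772), without CD115- CDP WT library 3 (87) and without CLP WT library 1 (6).

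With the replicate block 10 neutrophil genes were lower, as was 1 gene of each of the basophil, BCL2, p53 and immediate early lists, and 16 small RNAs were lower and 14 higher. It changed no other list by more than 1.5 times. With quantile normalization the log2 fold change was 0.054 for Sox4, -0.0073 for B2m, -0.057 for H2-K1, -0.048 for Hspa8, -0.097 for Rps9 and 0.013 for Atp5g2, and with TPM it was -0.029 for H2-K1 and -0.013 for Psmb8. Without 1 library it was -0.012 to 0.14 for Atp5b, -0.12 to 0.048 for Atp5g2, -0.66 to 0.00079 for Fos, -0.086 to 0.054 for H2-K1, -0.095 to 0.34 for Hspa5 and -0.075 to 0.34 for Hspa8. It was -0.22 to 0.25 for Il7r, -0.10 to 0.29 for Mcl1, -0.20 to 0.00048 for Psmb4, -0.043 to 0.083 for Psmb8, -0.055 to 0.0098 for Sox4 and -0.36 to 0.10 for Zfp36. The difference from MPPs turned to 0.085 for Sva with TPM, and to 0.054 for Il1r2 and -0.095 for Mir1905 with a pseudocount of 0.1. The difference of Sva from CD115- CDPs turned to -0.034 with median-ratio scaling and -0.19 with quantile normalization. Without 1 library the differences from CD115- CDPs were -0.31 to 1.11 for Ctla2b, -0.41 to 0.38 for Fcgr2b, -0.33 to 1.79 for Il1r2 and -0.12 to 0.28 for Sva, and those from MPPs were -1.01 to 0.47 for Il1r2, -0.67 to 1.0 for Mir1905 and -0.16 to 0.075 for Sva. The cause was not tested.

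Calls of 15 named CLP genes were lost under at least 1 alternative, among them BC100530, Ctr9, Ctss, Dnmt3b, Emp1, Gem, H1f0, Hbb-bs, Hp, Irf5, Ldhb, Stfa1, Stfa2l1 and Tcf4. Library weights could not be fitted. Genes near 0 FPKM rest on few reads, 1 read on a transcript of 2000 bases being worth 0.0252 to 0.0266 FPKM.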
